A study of Homo sapiens with 6 samples.

Results

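Collagen chains are the subunits from which the collagens of the extracellular matrix are built. They were chosen from the deposited count table as every gene whose symbol was Col, a number, a and a number. This gave 42 of the 22989 genes listed. RNA was sequenced in 6 libraries of MDA-MB-231 cells, a human triple-negative breast cancer line, to ask which genes depend on the long non-coding RNA LINC00115. Both groups were paclitaxel (PTX)-resistant breast cancer stem-like cells (BCSC), which the study sorted as ALDH+ cells. The 3 KD libraries came from cells carrying a short hairpin RNA against LINC00115, and the 3 control libraries are labelled WT, where the study's text names a control hairpin, shC. The KD samples are numbered sh115-1 to sh115-3, while the study's text uses sh115-1 and sh115-2 for its hairpins and names sh115-2 for its plot of the changed genes. No label states that the libraries of a group came from separate cultures, so p-values measure the spread between these libraries only, which may be technical.

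Each collagen molecule is a triple helix of 3 chains, either of the same kind or of different kinds, mostly from the same collagen type. Fibrillar collagens form the tensile fibrils of connective tissue, type IV forms the sheet of the basement membrane, and type VI forms beaded filaments around cells. FACIT collagens (fibril-associated collagens with interrupted triple helices) decorate the fibrils, and transmembrane collagens sit in the plasma membrane. New chains are hydroxylated, glycosylated and folded in the endoplasmic reticulum, and are then exported, trimmed and cross-linked outside the cell. In breast tumours, matrix collagens are known for their part in stiffness, invasion and cell survival.

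The libraries held between 36979221 and 38799331 counts. The table lists 0 genes named LINC00115, so the knockdown could not be checked and every direction rests on the group labels. Its symbols are in the style of mouse genes, with 4648 Gm names and 1129 Rik names, although the cell line is human. Of the 44 human protein-coding collagen chain genes in RefSeq, 41 appear in the table under the same letters, and COL10A1, COL21A1 and COL25A1 do not. Col6a4 is in the table but has no human protein-coding counterpart there. From which species the counted reads came was not tested. Vim and Cd44, both strongly expressed by MDA-MB-231 cells, stood at 3368 to 3792 and 872 to 963 normalized CPM (counts scaled to a common library size), while Epcam had at most 5 counts. Among other epithelial markers, Krt8 stood at 469 to 766 and Krt18 at 129 to 242 normalized CPM, and Krt19 had at most 7 counts. Of the receptor genes, Esr1 stood at 0.635 to 2.74 and Erbb2 at 15.7 to 28.1, and Pgr had at most 3 counts. In bulk RNA, fewer cells of a type and less RNA per cell cannot be told apart.

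In all, fewer collagen reads were found in the KD libraries. Collagen chains took 0.364% ± 0.0127 of all counts in the control libraries and 0.289% ± 0.00401 in the KD libraries (SD, n = 3 each). As normalized CPM, the summed level was 3726, 3593 and 3521 in the control libraries and 2947, 2892 and 2896 in the KD libraries, so the groups did not overlap. The basement membrane pair Col4a1 and Col4a2 gave 62.5% ± 0.495 of the collagen reads in the controls and 62.1% ± 0.172 in the KD libraries. Without this pair, the summed level was 1354 ± 51.7 normalized CPM in the controls and 1105 ± 12.6 in the KD libraries. The lower total was therefore not carried by this pair alone. Read totals depend on transcript length, so levels are compared here between groups and not between genes.

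Of the 42 chains, 24 had enough counts for edgeR's quasi-likelihood test, and 18 did not pass its filter. A chain passed the test at an adjusted p-value under 0.05 (Benjamini-Hochberg over 13497 genes), and it was called lower or higher when its fold change was also over 2. Called lower were 5 of the 24 chains (20.8%), against 9.98% of all genes tested. These were Col12a1, Col4a5, Col4a6, Col14a1 and Col17a1. Col4a6 and Col14a1 passed the filter through their control counts, so their entry to the test depended on the difference being counted. A stricter filter, asking for 10 or more counts from each library, left both out. It then called 3 of 19 chains lower, where 919 of 11966 genes were called lower. Called higher were 3 chains (12.5%), Col6a3, Col24a1 and Col9a3, against 10.2% of all genes tested. In either direction 8 chains were called (33.3%), against 20.2%. Without the threshold on the fold change, 11 chains passed the test as lower and 4 as higher, where 36.7% of all genes passed in each direction and 73.4% in either. The median log2 fold change was −0.28 over the 24 chains and −0.0061 over all genes tested. Of the tested chains, 19 had at least 10 counts in every library, and the other 5 (Col1a1, Col4a6, Col6a4, Col14a1 and Col27a1) rest on few reads.

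**Figure D1:**
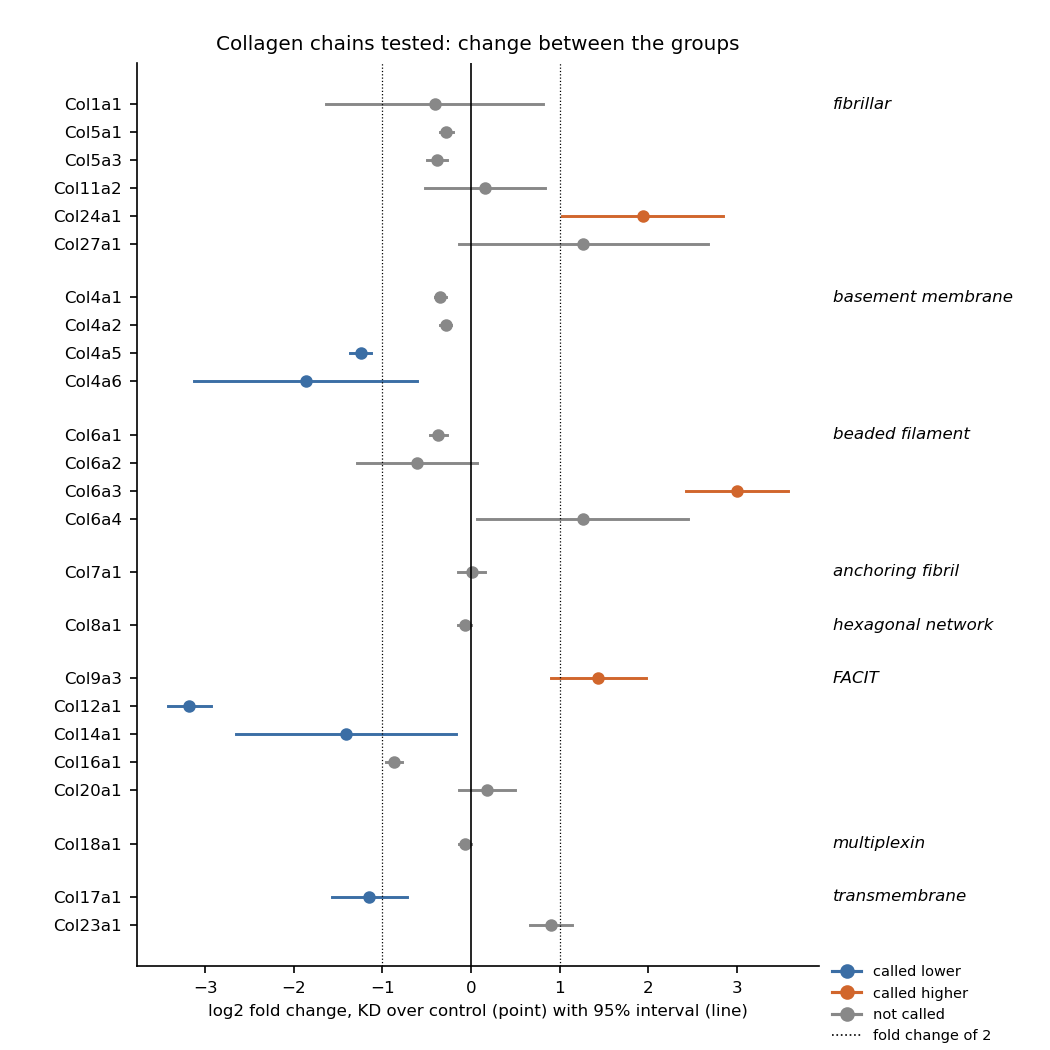
The log2 fold change of each of the 24 tested chains (KD over control, point) is drawn with its 95% interval (line), grouped by collagen class, and dotted lines mark a fold change of 2. Col12a1 lies farthest to the left at −3.18 and Col6a3 farthest to the right at 3.00, while Col4a1, Col4a2, Col5a1, Col5a3 and Col6a1 lie between −0.39 and −0.28 with short intervals.

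The FACIT collagens held the deepest loss. Col12a1 encodes the chain of type XII, which binds the surface of type I fibrils. It stood at 32.1, 29.6 and 24.2 normalized CPM in the control libraries and at 3.21, 3.62 and 2.63 in the KD libraries. Every KD library lay far below every control, and no library stood apart within its group. The chain fell 9.08-fold (log2 fold change −3.18, standard error 0.12, 95% interval −3.43 to −2.94, adjusted p = 2.52e-22, edgeR's quasi-likelihood test). Col16a1, the chain of type XVI, stood at 149, 135 and 135 normalized CPM in the controls and at 75.3, 77.7 and 76.3 in the KD libraries. The groups were well apart, but its fold of 1.83 stayed under the threshold (log2 fold change −0.87, standard error 0.045, adjusted p = 1.59e-18).

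The remaining FACIT chains did not move as a group. Col14a1, the chain of type XIV, had 22, 13 and 21 counts in the controls and 11, 2 and 8 in the KD libraries, a call on few reads (log2 fold change −1.41, standard error 0.61, adjusted p = 0.0383). This call was lost in 6 of the other fits, 4 of which left out a library, with adjusted p-values of 0.125 and 0.114 without control 1 and control 3 and of 0.184 and 0.0718 without KD 2 and KD 3. Col9a3, a chain of the cartilage collagen type IX, moved the other way. It stood at 1.99, 0.874 and 1.403 normalized CPM in the controls and at 4.01, 4.14 and 3.45 in the KD libraries, a rise of 2.71-fold (1.44 on the log2 scale, standard error 0.27, adjusted p = 1.12e-05). The controls spread widely, yet the highest of them lay below every KD library. Its partner chains Col9a1 and Col9a2 had at most 1 count in any library. Col20a1 overlapped between the groups, with a log2 fold change of 0.18 (interval −0.13 to 0.49). Col22a1 had between 2 and 19 counts and Col19a1 at most 6, and neither was tested.

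For orientation, the stretch directly before the start of the human gene of the same symbol is given for Col12a1, the chain that fell most. It is taken from RefSeq's promoter table (GRCh38.p14), chr6:75206054-75206303 on the minus strand, and is written 5′ to 3′ in the direction of the gene. Capitals mark a GC box (GGGCGG) and matches to the HIF core (ACGTG or GCGTG), each searched on both strands.
COL12A1: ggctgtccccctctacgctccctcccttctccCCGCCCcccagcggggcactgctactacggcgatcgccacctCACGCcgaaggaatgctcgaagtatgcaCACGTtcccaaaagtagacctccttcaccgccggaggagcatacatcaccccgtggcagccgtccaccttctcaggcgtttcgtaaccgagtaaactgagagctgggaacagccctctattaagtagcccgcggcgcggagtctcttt
It holds 1 GC box and 2 HIF cores. Of all 35116 RefSeq promoter windows, which reach from 250 bases before a start to 50 bases after it, 48.4% hold a HIF core and 45.0% a GC box. Of the 37 windows found for 29 of the collagen chains, 45.9% hold a HIF core and 62.2% a GC box. The tested chains have 24 windows, which belong to 17 chains, and 9 of these windows hold a HIF core. Of the called chains, Col9a3 and Col14a1 have no window, while Col24a1 and Col4a6 have more than 1 each. Of the 8 windows of called chains, 1 holds a HIF core, that of COL12A1. It is therefore not shared by the called chains that have a window. A match is a description of letters, and binding was not measured here.

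Basement membrane type IV collagen was lower in each of its 4 tested chains, by unequal amounts. Col4a1 and Col4a2, which assemble into the common type IV network of most tissues, were reduced slightly. Col4a1 stood at 1370, 1341 and 1298 normalized CPM in the controls and at 1064, 1033 and 1055 in the KD libraries. Col4a2 stood at 942, 924 and 902 in the controls and at 765, 757 and 747 in the KD libraries. For both chains the lowest control lay well above the highest KD library. Col4a1 fell by 0.35 on the log2 scale (interval −0.41 to −0.29, adjusted p = 1.24e-12) and Col4a2 by 0.29 (interval −0.35 to −0.23, adjusted p = 1.91e-10), both far under the fold threshold.

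Col4a5 encodes a chain that joins the specialized type IV networks of kidney, skin and smooth muscle. It stood at 72.9, 79.3 and 77.1 normalized CPM in the controls and at 34.4, 31.9 and 30.4 in the KD libraries. The spread within each group was small beside the gap between them. Col4a5 fell 2.37-fold (log2 fold change −1.25, standard error 0.057, adjusted p = 6.76e-20). Col4a6, its partner in one such network, had 29, 37 and 27 counts in the controls and 1, 21 and 3 in the KD libraries. KD 2 alone came near the controls. The call (log2 fold change −1.87, standard error 0.62, adjusted p = 0.00768) was lost without KD 1 (adjusted p = 0.0696) and without KD 3 (adjusted p = 0.0655). Col4a3 and Col4a4, the other partners of Col4a5, had at most 11 and 10 counts and were not tested.

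The type IV genes lie in head-to-head pairs in the human genome, which is why their shared upstream stretches are shown. In GRCh38.p14, the starts of COL4A1 and COL4A2 on chromosome 13 lie 127 bp apart, those of COL4A3 and COL4A4 on chromosome 2 lie 419 bp apart, and those of COL4A5 and COL4A6 on chromosome X lie 380 bp apart, or 1416 bp for another COL4A6 start. The stretch between the starts of COL4A1 (minus strand) and COL4A2 (plus strand), chr13:110307158-110307283, and the stretch before the start of COL4A5, chrX:108439588-108439837, are both written on the plus strand from RefSeq. Capitals mark the CCAAT box (CCAAT, reading ATTGG on the other strand) and the GC box.
COL4A1-COL4A2: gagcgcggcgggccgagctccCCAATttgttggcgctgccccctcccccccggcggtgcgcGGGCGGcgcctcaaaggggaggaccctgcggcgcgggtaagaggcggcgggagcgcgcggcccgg
COL4A5: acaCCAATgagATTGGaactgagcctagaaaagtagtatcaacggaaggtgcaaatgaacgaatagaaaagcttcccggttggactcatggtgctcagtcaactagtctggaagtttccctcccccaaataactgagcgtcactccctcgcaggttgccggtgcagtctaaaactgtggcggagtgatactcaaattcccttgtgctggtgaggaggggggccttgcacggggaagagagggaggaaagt
The first holds 1 CCAAT box and 1 GC box and the second 2 CCAAT boxes, while 34.6% of all promoter windows and 29.7% of the collagen windows hold a CCAAT box. Col4a1 and Col4a2 were lower in the KD libraries by similar amounts. Col4a5 and Col4a6 were both called lower, with a wide interval for Col4a6 (−3.13 to −0.60), and Col4a3 and Col4a4 were not tested.

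Beaded filament collagen of type VI showed chains moving in opposite directions. Col6a3 encodes the long alpha-3 chain of the classical type VI molecule, whose cleaved end is known as endotrophin. It stood at 0.849, 0.397 and 0.503 normalized CPM in the controls and at 4.58, 4.52 and 5.003 in the KD libraries. All KD libraries were alike and far above the controls. Col6a3 rose 8.02-fold (log2 fold change 3.00, standard error 0.28, interval 2.43 to 3.58, adjusted p = 1.60e-11). Col6a1, the first chain of the same molecule, stood at 119, 117 and 108 normalized CPM in the controls and at 89.6, 91.6 and 84.9 in the KD libraries. It fell by 0.37 on the log2 scale (standard error 0.046, adjusted p = 7.32e-09).

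Col6a2, the second chain, stood at 1.35, 2.36 and 2.46 normalized CPM in the controls and at 1.96, 0.953 and 1.11 in the KD libraries. Control 1 and KD 1 crossed, and the difference did not pass the test (log2 fold change −0.61, interval −1.29 to 0.07, adjusted p = 0.0978). It passed, under the fold threshold, without control 1 (−0.84, adjusted p = 0.0279) and without KD 1 (−0.99, adjusted p = 0.0219). Col6a4 had 13, 9 and 4 counts in the controls and 15, 14 and 34 in the KD libraries, and missed the threshold (log2 fold change 1.26, adjusted p = 0.0527). It was called higher without control 1 (adjusted p = 0.0449), KD 1 (0.0488) or KD 2 (0.0492). Col6a5 had between 1 and 11 counts and Col6a6 at most 1.

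Among the fibrillar collagens, the tested chains of type V fell a little and a rare chain rose. Col5a1, which sets the diameter of type I fibrils, stood at 278, 259 and 260 normalized CPM in the controls and at 221, 220 and 215 in the KD libraries. Col5a3 stood at 151, 122 and 121 in the controls and at 102, 100 and 98.1 in the KD libraries. Control 1 was the highest for both, and the remaining controls also lay above every KD library. Col5a1 fell by 0.28 on the log2 scale (standard error 0.036, adjusted p = 1.70e-08) and Col5a3 by 0.39 (standard error 0.055, adjusted p = 1.29e-07). Col5a2, the usual partner of Col5a1 in fibrils, had at most 1 count.

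Col24a1, a low-abundance fibrillar chain described in bone, had 14, 12 and 13 counts in the controls and 52, 40 and 59 in the KD libraries. The counts within each group were close and the groups were apart. It rose 3.83-fold (log2 fold change 1.94, standard error 0.45, adjusted p = 2.32e-04). The chains of the major fibrillar collagens had few counts. Col1a1 had 16, 13 and 15 counts in the controls and 3, 10 and 20 in the KD libraries (log2 fold change −0.41, interval −1.64 to 0.82), Col1a2 at most 14 and Col3a1 between 5 and 15. Col2a1 reached 5 counts and Col11a1 had 0 counts in all libraries, which allows a level of up to 0.0776 to 0.0817 normalized CPM, by the limit of 3 counts. Such limits cover counting error only.

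The other fibrillar chains did not pass the test. Col11a2 overlapped between the groups (log2 fold change 0.16, interval −0.52 to 0.83). Col27a1 had 11, 2 and 3 counts in the controls and 8, 17 and 14 in the KD libraries (log2 fold change 1.27, adjusted p = 0.0985). It was called higher only in the fit without control 1 (log2 fold change 2.33, adjusted p = 0.0257).

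The transmembrane collagens also split. Col17a1, the hemidesmosome collagen that anchors epithelial cells to the basement membrane, stood at 6.29, 4.32 and 4.79 normalized CPM in the controls and at 2.25, 2.61 and 2.08 in the KD libraries. Control 1 was the highest, and every control lay above every KD library. The chain fell 2.22-fold (log2 fold change −1.15, standard error 0.21, adjusted p = 8.43e-06), and without control 1 its log2 fold change of −0.98 was under the threshold. Krt5 and Krt14, keratins of the basal epithelial cells that also carry Col17a1, stood apart in another library, control 3, with 92 and 192 counts against at most 31 elsewhere. Col23a1, a short membrane collagen, stood at 8.18, 6.89 and 9.05 normalized CPM in the controls and at 17.3, 13.5 and 14.4 in the KD libraries. It rose 1.87-fold (0.90 on the log2 scale, standard error 0.12, adjusted p = 2.29e-08), under the fold threshold. Col13a1 had 0 counts in every control and 4, 5 and 1 in the KD libraries. It did not pass the filter and was called higher when no filter was applied.

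Anchoring fibril, network and multiplexin chains did not pass the test. Col7a1, which forms the anchoring fibrils under epithelia, stood at 46.4, 35.8 and 35.7 normalized CPM in the controls and at 41.0, 40.2 and 37.4 in the KD libraries. Control 1 lay above and the other controls below the KD libraries, and the log2 fold change was 0.0075 (interval −0.15 to 0.16). Col8a1, a network collagen of vessel walls and the cornea, stood at 203, 201 and 198 in the controls and at 195, 190 and 188 in the KD libraries (log2 fold change −0.071, adjusted p = 0.0756). Col18a1, the precursor of endostatin, stood at 334, 325 and 332 in the controls and at 314, 308 and 322 in the KD libraries (log2 fold change −0.070, adjusted p = 0.0593). For Col8a1 and Col18a1 the groups did not overlap, but the differences were small and did not pass the test with TMM scaling. With library totals only they did (adjusted p = 0.0227 for Col8a1 and 0.0139 for Col18a1), again far under the fold threshold. Col15a1, the other multiplexin, had between 1 and 23 counts and Col8a2 at most 1. Of the chains outside these classes, Col28a1 had at most 4 counts and Col26a1 at most 1.

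**Figure D2:**
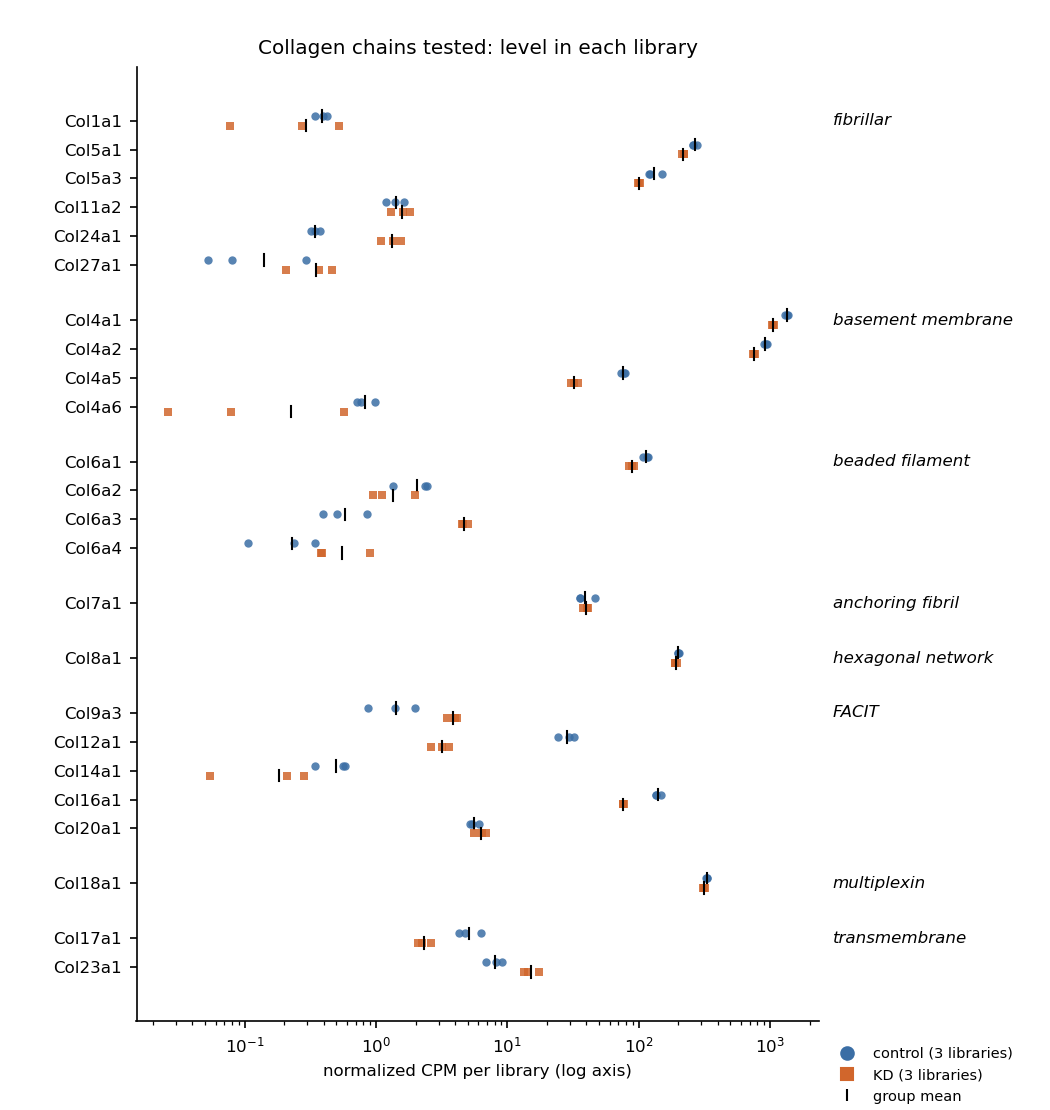
Each tested chain is shown by its normalized CPM in the 3 control libraries (circles) and the 3 KD libraries (squares) on a log axis, with vertical ticks at the group means, grouped by collagen class. The KD squares of Col12a1 lie between 2.63 and 3.62 and its control circles between 24.2 and 32.1, those of Col6a3 lie the other way round, and the points of Col7a1 and Col20a1 overlap.

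The ratio of 2 chains of the same collagen type does not depend on how libraries are scaled, and it was computed for the 7 pairs with at least 10 counts in every library. The control and KD libraries did not overlap for 6 of the 7 pairs. Of all single genes tested, 73.4% passed the test, but how often ratios of other gene pairs separate was not computed. With 3 libraries against 3, an exact permutation test cannot go below p = 0.1, which is its value for these 6 pairs (two-sided, adjusted over the pairs 0.117). The log2 ratio of Col4a1 to Col4a2 changed least, from 0.534 ± 0.00761 to 0.474 ± 0.0249 (SD, n = 3 each). The ratio of Col4a1 to Col4a5 went from 4.13 ± 0.0894 to 5.03 ± 0.0848, a difference of 0.90, and that of Col4a2 to Col4a5 differed by 0.96. Type IV reads in the KD libraries were thus poorer in Col4a5. The ratio of Col6a1 to Col6a3 went from 7.69 ± 0.537 to 4.24 ± 0.136, a difference of −3.45, and that of Col6a2 to Col6a3 by −3.73. Col6a1 to Col6a2 overlapped between the groups, with a difference of 0.27 (exact permutation p = 0.6). The ratio of Col5a1 to Col5a3 differed by 0.098, less than the control SD of 0.123.

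**Figure D3:**
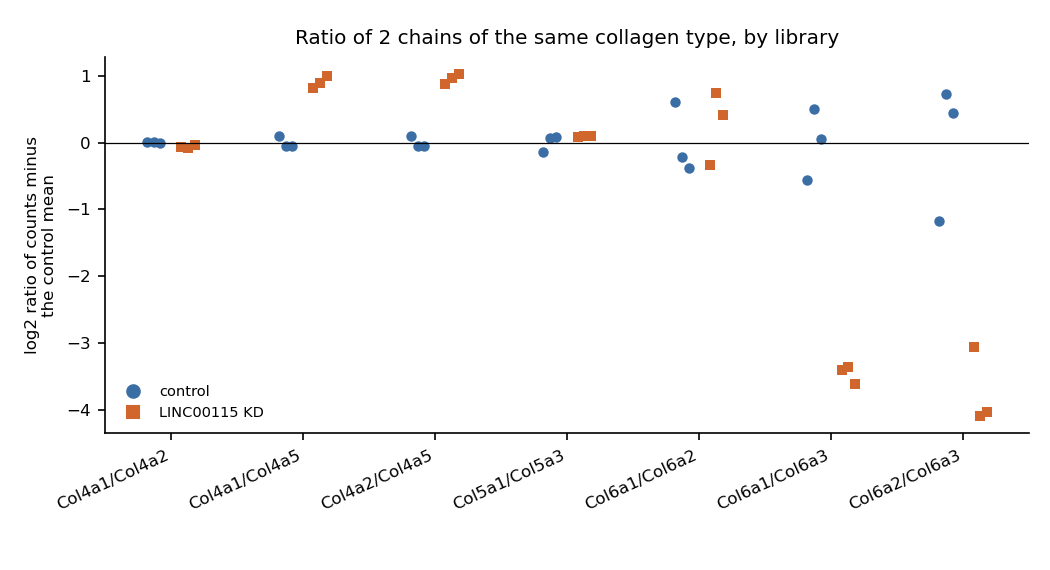
For each of the 7 pairs of chains, the log2 ratio of their counts in a library is drawn relative to the control mean of that pair, with control libraries as circles and KD libraries as squares. In the KD libraries the pairs with Col6a3 lie on average at −3.45 and −3.73, the pairs with Col4a5 at 0.90 and 0.96, and Col4a1/Col4a2 at −0.060.

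Among the genes that modify and fold collagen chains, several hydroxylases fell. Of 16 tested hydroxylases, glycosyltransferases and chaperones, 6 were called lower and 0 higher, against 9.98% and 10.2% of all genes tested. The median log2 fold change was −0.41. Without the fold threshold, 12 passed edgeR's test as lower and 2 as higher at an adjusted p under 0.05. Of all genes, 36.7% passed so in each direction. DESeq2 called 6 lower and 1 higher, where it called 1471 lower and 1666 higher of 17632 genes. Plod2, the lysyl hydroxylase that prepares chain ends for stable cross-links, stood at 501, 456 and 464 normalized CPM in the controls and at 123, 110 and 110 in the KD libraries, or −2.05 as a log2 fold change. P4ha2, a catalytic subunit of prolyl 4-hydroxylase, went from 310, 270 and 270 to 92.6, 84.3 and 85.6 (−1.70). P4ha3, another such subunit, had 45, 43 and 56 counts in the controls and 16, 17 and 12 in the KD libraries (−1.67). In all of them the groups were far apart. P4ha1 (−1.46), the shared subunit P4hb (−1.28) and the isomerase Fkbp14 (−1.43) were also called lower. The collagen chaperone Serpinh1 fell only by 0.17 on the log2 scale, and Plod1 was higher by 0.73, neither past the fold threshold. P3h2 and Colgalt1 did not pass the test (0.01 and 0.05).

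Of 10 tested genes for export from the endoplasmic reticulum, 0 were called in either direction by edgeR and by DESeq2. Of all genes tested with edgeR, 20.2% were called. Without the fold threshold, 4 export genes passed edgeR's test as lower and 4 as higher at an adjusted p under 0.05. Of all genes, 73.4% passed so in either direction. The median of the export genes was −0.047. Of 9 tested genes for propeptide cleavage and cross-linking, 1 was called lower and 2 higher, again against 9.98% and 10.2% of all genes, with a median of 0.12. The cross-linking oxidase Lox had 4, 8 and 7 counts in the controls and 58, 53 and 68 in the KD libraries, a log2 fold change of 3.21. Lox met the filter only through the KD libraries. With at least 10 counts in every library, 1 gene of this list was called lower and 1 higher. Loxl1 stood at 5.92, 5.77 and 5.03 normalized CPM in the controls and at 20.4, 15.4 and 19.8 in the KD libraries (1.73). Loxl2, by contrast, had 61, 62 and 70 counts in the controls and 20, 40 and 35 in the KD libraries (−1.02). That call was lost without control 3 or KD 1.

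Of 7 tested collagen receptors, 1 was called lower and 0 higher, where 20.2% of all genes were called in either direction. The median was −0.11. Without the fold threshold, 3 passed edgeR's test as lower and 2 as higher at an adjusted p under 0.05. Of all genes, 73.4% passed so in either direction. DESeq2 called 1 lower and 0 higher, where it called 1471 lower and 1666 higher of 17632 genes. Itga2, the integrin chain that binds type I collagen, stood at 216, 189 and 182 normalized CPM in the controls and at 73.6, 75.0 and 76.6 in the KD libraries (log2 fold change −1.38). Of 8 tested collagen-binding matrix proteins, 1 was called lower and 4 higher, against 9.98% and 10.2% of all genes, with a median of 0.47. Prelp, a leucine-rich proteoglycan, went from 10, 20 and 11 counts to 229, 238 and 252 (4.12), and Bgn (biglycan) from 2, 0 and 7 to 34, 29 and 35 (3.39). Bgn met the filter only through the KD libraries. With at least 10 counts in every library, 1 gene of this list was called lower and 3 higher. Matn2 (matrilin) went from 16.1, 18.3 and 17.3 to 50.4, 47.5 and 46.8 normalized CPM (1.48). Dcn (decorin), a relative of Bgn, was called lower instead (−1.28). The major partners Fn1 and Hspg2, at −0.45 and −0.70, passed the test but not the fold threshold.

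Of 7 tested collagen-degrading proteases, 2 were called lower and 2 higher, against 9.98% and 10.2% of all genes, with a median of 0.097. These counts rested on single libraries, with 0 called higher without control 1, control 2 or KD 2 and 1 called lower without control 1, control 2, KD 2 or KD 3. With at least 10 counts in every library, 1 was called lower and 0 higher. Mmp9, the gelatinase that also cleaves type IV collagen, stood at 149, 147 and 149 normalized CPM in the controls and at 25.3, 26.6 and 24.1 in the KD libraries (log2 fold change −2.55). Ctsk (cathepsin K) had 15, 14 and 11 counts against 6, 4 and 2 (−1.71). Mmp2 had 0, 1 and 23 counts in the controls and 22, 29 and 20 in the KD libraries, with control 3 among the KD values (1.55). Of these, DESeq2 called Mmp9 alone, and in the other direction it called Mmp8, which edgeR's filter had left out.

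Of 16 tested transcription and TGF-beta genes, 2 were called lower and 2 higher, shares near those of all genes (9.98% and 10.2%), with a median of 0.11. Ccn2, a matrix protein induced by TGF-beta, stood at 6.05, 6.17 and 6.75 normalized CPM in the controls and at 214, 204 and 214 in the KD libraries (log2 fold change 5.06). Tgfb2, a TGF-beta ligand, went from 2.04, 1.64 and 2.46 to 21.7, 18.2 and 23.04 (3.35). Sox5, a cartilage transcription factor, went from 12.2, 15.5 and 14.4 to 4.52, 4.49 and 4.34 (−1.66). The ligand Tgfb3 was also called lower (−1.33), so that ligands of 1 family moved apart.

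Other proteins that carry a collagen-like triple helix were mostly not tested, with 9 of 24 passing the filter, of which 1 was called lower and 3 higher, against 9.98% and 10.2% of all genes (median −0.54). Sftpa1 and Sftpd, surfactant proteins of the lung, had 0 counts in every control. They had 159, 170 and 156 counts and 57, 80 and 86 counts in the KD libraries, at least 53.9-fold and 24.8-fold higher than the limit of 3 counts per library. Both met the filter only through the KD libraries. With at least 10 counts in every library, 1 gene of this list was called lower and 1 higher. The scavenger receptor Scara5 stood at 83.7, 91.0 and 86.4 normalized CPM in the controls and at 219, 215 and 220 in the KD libraries (log2 fold change 1.32). C1qtnf1 was called lower (−1.21).

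**Figure D4:**
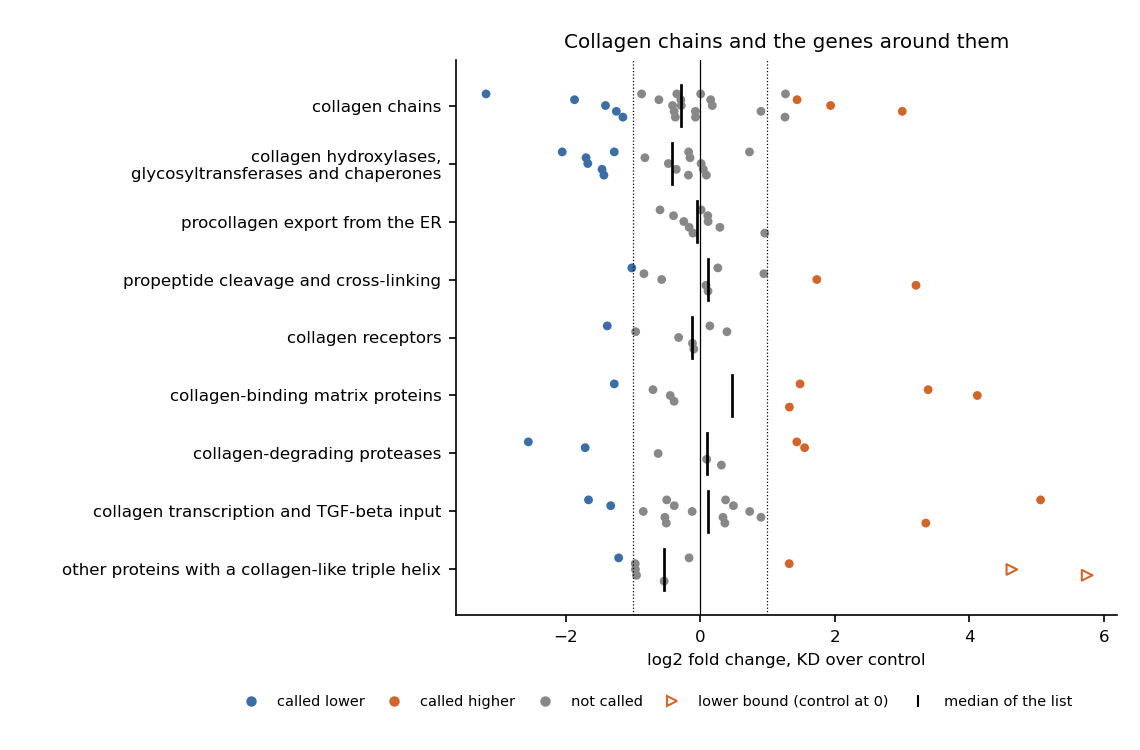
The log2 fold change (KD over control) of each tested gene is drawn for the collagen chains and for 8 lists of genes that build, export, cross-link, bind or degrade collagen, with a vertical tick at the median of each list and dotted lines at a fold change of 2. The called hydroxylases and chaperones all lie left of the lower dotted line, the export genes lie between the lines, and open triangles mark the lower bounds of Sftpa1 and Sftpd.

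Some markers of cell types that make much collagen differed between the groups too. Of 9 fibroblast markers, 5 were tested, 3 were called lower (Pdgfra, S100a4 and Dcn) and 1 higher (Fap), against 9.98% and 10.2% of all genes. The 9 summed to 930 to 1011 normalized CPM in the controls and 407 to 437 in the KD libraries. Most of this sum was S100a4, at a mean of 785 in the controls and 341 in the KD libraries. Nearly all the rest was Pdgfra, at a mean of 177 and 74.5. Fap had 10, 5 and 15 counts in the controls and 11, 56 and 14 in the KD libraries, so the groups overlapped and KD 2 alone stood apart, and DESeq2 did not call it. Thy1, Lum, Dpt and Clec3b, also on this list, had at most 5 counts in any library, while Pi16 had between 64 and 99 counts and was not called. Of 8 pericyte and smooth muscle markers, 4 were tested, of which 2 were called higher and 0 lower, against 10.2% and 9.98% of all genes. The 2 were Acta2 (2, 2 and 7 counts in the controls, 14, 27 and 22 in the KD libraries) and Tagln (8, 5 and 12 against 17, 32 and 36). Rgs5 went the other way, from 26, 31 and 10 counts to 3, 8 and 8. It did not pass edgeR's filter and was called lower by DESeq2. Pdgfrb was also lower in every KD library, without passing the test. The 8 pericyte and smooth muscle markers summed to 2.04 to 2.18 in the controls and 2.38 to 3.87 in the KD libraries. Of 8 endothelial markers, 3 were tested and Cdh5 alone was called higher, against 10.2% of all genes. The 8 summed to 0.715 to 1.22 in the controls and 57.5 to 60.2 in the KD libraries. Cdh5 gave nearly all of the KD sum, at 56.2, 58.2 and 59.1. Pecam1 and Vwf did not pass the test, and Emcn, Tek and Erg had at most 2 counts. Cldn5 had 0 counts in every control and 9, 9 and 18 in the KD libraries, and Kdr had 0, 0 and 1 against 2, 10 and 2. Neither passed edgeR's filter, and DESeq2 called Cldn5 higher but not Kdr.

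Markers of cartilage and bone, the tissues of Col9a3 and Col24a1, summed to 0.159 to 0.556 in the controls and 1.18 to 1.85 in the KD libraries. Most of this sum was Alpl alone, at a mean of 0.318 in the controls and 1.26 in the KD libraries. Only Alpl was tested, and it was called higher, as were 10.2% of all genes tested. Acan had at most 1 count, and Comp, Matn3, Bglap and Ibsp at most 5. Matn1 and Sp7, also on this list, are not among the genes listed in the count data. Of 8 leukocyte markers, 4 were tested and 3 called higher (S100a8, S100a9 and Lyz2), against 10.2% of all genes. The 8 summed to 70.9 to 84.5 in the controls and 141 to 156 in the KD libraries. Most of this sum was S100a8, at a mean of 33.0 in the controls and 95.2 in the KD libraries, and Cd68, at 42.8 and 47.2 and not called. Cd3e had 0 counts in all libraries and Ptprc between 5 and 13. Of 11 epithelial or MDA-MB-231 markers, 7 were tested. Of these, 1 was called lower (Krt14, with 192 counts in control 3) and 1 higher (Esr1), against 9.98% and 10.2% of all genes. Of the markers called higher, Cdh5, Acta2, Tagln and S100a9 met the filter only through the KD libraries, with at most 14 counts in any control. The part of these cell type markers in the collagen differences was not tested.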

How the data were processed

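The authors trimmed adapters, mapped reads with HISAT2 and deposited 1 table of whole-number counts per gene, without normalization. The study's methods name hg19 and the submitters' processing notes name hg38, with featureCounts and DESeq2. How strand was handled and which annotation was used are not given in the sources used here, so counts of overlapping genes and near-identical copies are uncertain. RNA and library kits also differ between the study's methods (RNeasy, NEBNext) and the labels (TRIzol, SMARTER). Columns were assigned to samples by their labelled names.

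The counts entered edgeR 4.0.16 (R 4.3.3) by these steps: filterByExpr (minimum count 10, minimum total 15), TMM scaling, the quasi-likelihood test with group as the only term, and Benjamini-Hochberg adjustment over 13497 genes. Called genes had an adjusted p under 0.05 and a fold change over 2. Standard errors were the log2 fold change divided by the root of F, and intervals are 95%. With totals of 36979221 to 38799331 counts, 1 count was worth 0.0259 to 0.0272 normalized CPM. Chain ratios used an exact permutation test. Steps were tested on simulated counts with 200 changed genes. No library was a copy of another: chi-square per degree of freedom was 3.88 to 7.60 within groups and 206 to 226 between them.

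The chains, the 8 lists around collagen and the 6 marker lists were chosen with earlier results of these data known. Every chain is named; of each list around collagen, the 3 called genes with the largest log2 fold change are given by library, and other genes named were chosen after their values were seen. Promoter sequences came from RefSeq by symbol. Alternatives were DESeq2's size factors, library totals only, a stricter filter (at least 10 counts in every library), no filter, DESeq2 1.42.0, no fold threshold, the replicate number as a block, and each library left out.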

Additional observations from a re-analysis of the deposited data

How the results depend on the processing

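Of 283 refits of single chains' log2 fold changes, 265 kept their direction and their call, 9 lost a call, 4 gained one and 5 changed sign. Col12a1, Col4a5, Col6a3, Col24a1 and Col9a3 were called in every fit run. The 5 chains called lower became 3 with at least 10 counts in every library, since Col4a6 and Col14a1 were then not tested, 4 with no filter or with DESeq2, 11 with no fold threshold, and 3 to 5 with a library left out. The 3 chains called higher became 4 with no filter or no fold threshold and 3 to 5 with a library left out, 5 being the fit without control 1. Over all genes, 919 were lower and 903 higher of 11966 with at least 10 counts in every library. With no filter these were 1570 and 1793 of 22406, and with DESeq2 1471 and 1666 of 17632. With a library left out, 1257 to 1392 were lower and 1405 to 1488 higher, of 13887 to 13919. Changes of sign were seen for chains that did not pass the test: Col1a1 to 0.049 without KD 1 (range −1.14 to 0.049 over the fits leaving out a library), and Col7a1 to −0.013 with library totals only and to −0.054, −0.055 and −0.013 without control 2, control 3 and KD 1 (range −0.055 to 0.14). The replicate number does not pair the libraries, since the correlations of same-numbered libraries' deviations were 0.042, −0.015 and −0.021; with it as a block, 5 chains were lower and 3 higher, as without it. All 42 refits of chain ratios kept their direction. Among chains not called, Col6a2 passed the adjusted p threshold without control 1 or KD 1, and Col8a1 and Col18a1 with library totals only. Of 208 refits of counts in the 8 lists, 43 moved by over 1.5 times. With a library left out, the hydroxylase list gained 1 higher gene (without control 1, 2 or 3 or KD 3), export 1 higher (without KD 1), receptors 1 lower (without KD 3) and the triple-helix list 1 lower (without control 3 or KD 3). At this depth, 18 chains were too rare to test.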
